A study of Mus musculus with 12 samples.

Results

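The 10 chemokine genes described here are Cxcl1, Cxcl2, Cxcl9, Cxcl10, Cxcl12, Cxcl16, Ccl2, Ccl7, Ccl6 and Ccl9, taken by symbol from a table of 45777 mouse genes. All 10 had reads in at least 1 of 12 livers and passed the filter on low counts over the 12 livers, as did 16509 genes of the whole table. Liver mRNA was sequenced from male C57BL/6 mice in 4 groups of 3 livers: WT given vehicle, WT given APAP, mice labelled Gα12KO (genotype Gα12-/-, called the KO label here) given vehicle, and mice under the KO label given APAP. Acetaminophen (APAP) in overdose is a standard model of hepatocyte death. The labels give an age of 10 to 12 weeks. In the study's methods, mice were fasted overnight and injected i.p. with a single dose of 300 mg/kg APAP, livers were taken 6 h later, and the WT mice were age-matched littermates of the Gna12 KO mice, for which no Cre or tissue-specific promoter is named.

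Chemokines are small secreted proteins that guide leukocytes along concentration gradients by binding G protein-coupled receptors on the cell surface. CXC chemokines with an ELR motif, such as Cxcl1 and Cxcl2, act on CXCR2 and draw neutrophils, whereas Cxcl9 and Cxcl10 are interferon-inducible ligands of CXCR3 on activated T and NK cells. Ccl2 and Ccl7 act on CCR2 and mobilise monocytes, Ccl6 and Ccl9 are rodent ligands of CCR1, Cxcl12 is the constitutive ligand of CXCR4, and Cxcl16 is a membrane-anchored ligand of CXCR6. In the poisoned liver these genes are known to be transcribed by hepatocytes, macrophages, endothelial cells and stellate cells, and NF-κB and interferon signaling are known to control many of them. In bulk liver, fewer cells of a type and less RNA per cell cannot be told apart.

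Facts of the libraries that touch the values come first. The total count ranged from 49737950 to 69566079 per liver. Gna12, the targeted gene, had gene-level values under the KO label that overlapped those of WT. With vehicle it lay at 54.6 to 67.2 CPM (reads scaled to the size of the library, after the TMM correction) under the KO label against 34.8 to 66.7 in WT. After APAP it lay at 43.5 to 48.3 against 23.7 to 58.1 in WT. The lowest WT values were those of vehicle-treated WT liver 2 and APAP-treated WT liver 1. The other WT livers were at 63.3 and 66.7 CPM with vehicle and at 50.5 and 58.1 after APAP. The study reports PCR of tail DNA and liver qRT-PCR for Gna12 in WT and KO mice, and Gα12 immunoblots. Gene-level counts do not show which exons the reads came from, so the label was used as given. Alb and the other hepatocyte markers together made up 71681 to 136919 CPM in every liver. A pair of WT livers stood apart from the rest. Vehicle-treated WT liver 2 had 19.7 CPM of summed neutrophil markers against 1.24 to 2.55 in the other vehicle livers, and APAP-treated WT liver 1 had 131 CPM of neutrophil markers and 17366 CPM of summed erythroid (hemoglobin) markers against 253 to 749 in the other 11 livers. Among neutrophil granule genes, Camp and Mpo had 0 reads in all 12 livers, and Ltf, Ngp and Elane had at most 18. Mmp8 had 257, 81 and 107 reads in the APAP-treated WT livers and 6, 0 and 48 in those of the KO label. With vehicle it had 81 in WT liver 2 and 0 to 2 in the other livers. Where leaving out either liver changed a call or a value by much, the value without it is given beside the result.

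The members form pairs along the genome (GRCm38.p6, the build of the mm10 files). Cxcl1 (chr5:90891245-90893121) and Cxcl2 (chr5:90903899-90905938) lay 10.8 kb apart, and Cxcl9 (chr5:92321331-92328079) and Cxcl10 (chr5:92346638-92348889) lay 18.6 kb apart on the same chromosome. On chromosome 11, Ccl2 (chr11:82035577-82037452) and Ccl7 (chr11:82045712-82047525) were 8.26 kb apart, and Ccl9 (chr11:83572917-83578636) and Ccl6 (chr11:83587886-83593087) were 9.25 kb apart. Cxcl12 (chr6:117168535-117181368) and Cxcl16 (chr11:70454389-70459984) had no other member beside them. Reads of Cxcl10 and Cxcl16 are less certain than the rest, because their exons overlap those of Art3 and Zmynd15 on the opposite strand and the strand setting of the counting is not given in the sources used here. Art3 itself had 24 to 115 reads per liver and Zmynd15 39 to 193. Of the 50-base stretches of Cxcl2 transcripts, 5.84% also occur in Cxcl3, its near relative.

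The stretches of 250 bases before the transcription start are shown for the members whose RefSeq promoter holds a match to the κB consensus, the sequence bound by NF-κB, since 3 of them (Cxcl1, Cxcl2 and Cxcl10) are the genes on which the results turn most. RefSeq promoters (GRCm38.p6, 250 bases before to 50 after the start) were matched for 7 of the 10 members, all but Cxcl16, Ccl2 and Ccl7. Capitals mark the κB matches and, in Cxcl10 only, also the AP-1 motif TGANTCA and the interferon regulatory factor core AANNGAAA. Both strands were searched.

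Cxcl1 (chr5:90890995-90891244, plus strand): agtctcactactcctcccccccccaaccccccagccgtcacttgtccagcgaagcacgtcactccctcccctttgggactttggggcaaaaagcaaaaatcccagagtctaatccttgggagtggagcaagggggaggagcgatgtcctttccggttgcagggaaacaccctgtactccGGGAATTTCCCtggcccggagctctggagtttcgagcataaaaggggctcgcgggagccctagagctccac

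Cxcl2 (chr5:90903649-90903898, plus strand): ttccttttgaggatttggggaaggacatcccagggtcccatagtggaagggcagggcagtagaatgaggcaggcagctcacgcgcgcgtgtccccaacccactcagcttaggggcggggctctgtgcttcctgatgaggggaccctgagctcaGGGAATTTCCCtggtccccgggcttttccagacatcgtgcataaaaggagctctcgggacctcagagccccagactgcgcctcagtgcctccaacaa

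Cxcl10 (chr5:92348890-92349139, minus strand): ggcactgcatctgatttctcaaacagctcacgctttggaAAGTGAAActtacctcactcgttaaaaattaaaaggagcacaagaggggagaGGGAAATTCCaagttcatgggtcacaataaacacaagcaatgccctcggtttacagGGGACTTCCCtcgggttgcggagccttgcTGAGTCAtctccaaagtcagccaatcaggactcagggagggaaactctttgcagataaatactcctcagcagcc

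Ccl9 (chr11:83578637-83578886, minus strand): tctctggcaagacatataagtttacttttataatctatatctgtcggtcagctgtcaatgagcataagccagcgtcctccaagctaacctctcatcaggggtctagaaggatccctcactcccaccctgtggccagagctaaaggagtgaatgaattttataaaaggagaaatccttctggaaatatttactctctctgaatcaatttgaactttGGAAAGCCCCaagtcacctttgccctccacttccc

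Cxcl1 and Cxcl2 held the same 11-base run, GGGAATTTCCC, in which matches on both strands overlap, starting 71 and 97 bases before the start. Cxcl10 held separate κB matches starting at 159 and 103 bases before the start, an AP-1 motif at 74 and the interferon regulatory factor core at 211. The κB match of Ccl9 began 35 bases before the start. The κB consensus occurred in 4 of the 7 matched members and in 4.51% of all 32851 promoters, AP-1 in 3 members (Cxcl9, Cxcl10 and Ccl9) and 7.81% of promoters, and the interferon regulatory factor core in 1 member and 23.9% of promoters. A match describes the letters only. The data hold no measurement of binding.

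Per transcript length, Cxcl12 had the highest median of the members in the vehicle livers and Cxcl1 in the APAP livers. Cxcl12 was above Cxcl1 in 2 of the 6 APAP livers (APAP-treated KO liver 1 and APAP-treated WT liver 2), and Cxcl1 was above Cxcl12 in vehicle-treated WT liver 2. In TPM (the deposited values, which correct for transcript length and depth), the median over the 6 vehicle livers was 141 for Cxcl12 (112 to 175), 18.5 for Ccl9 (16.9 to 21.7), 6.48 for Ccl6 (5.36 to 11.3) and 5.63 for Cxcl1 (3.81 to 409.9). The first 3 did not overlap, but each later pair of neighbours in this order did. The others followed with medians of 3.94 TPM for Cxcl16, 2.01 for Cxcl10, 1.29 for Cxcl9 and 0.224 for Ccl2, and Cxcl2 and Ccl7 had a median of 0. After APAP the order became Cxcl1 (median 109 TPM, 50.04 to 205), Cxcl12 (71.3, 37.4 to 116), Cxcl10 (23.2, 6.64 to 46.6), Ccl6 (17.6, 10.98 to 24.0) and Ccl9 (12.3, 11.4 to 14.5). Apart from the step from Ccl9 to Cxcl2, which ranged from 1.03 to 4.90 TPM, each neighbouring pair in that order overlapped in range. Cxcl2 (3.26), Cxcl16 (2.56), Cxcl9 (2.46), Ccl2 (2.29) and Ccl7 (0.805) had the lowest medians.

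**Figure D1:**
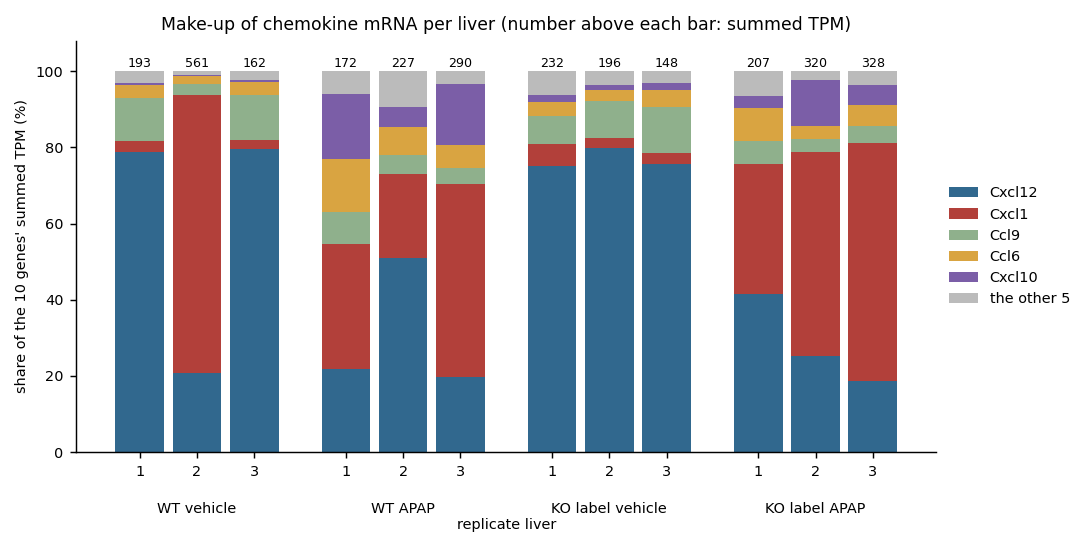
Each bar is 1 liver and the colours give each gene's percentage of the summed TPM of the 10 chemokine genes, with that sum printed above the bar. Cxcl12 took 75.2% to 79.7% in 5 of the 6 vehicle livers and 18.8% to 51.0% after APAP, and vehicle-treated WT liver 2 was made up of Cxcl1 at 73.1%.

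The summed TPM of the 10 genes was 193, 561 and 162 in the vehicle-treated WT livers, 172, 227 and 290 in the APAP-treated WT livers, 232, 196 and 148 in the vehicle livers of the KO label and 207, 320 and 328 in its APAP livers. The sums of the treatments overlapped. The median share of Cxcl12 was 77.2% in vehicle livers and 23.5% in APAP livers, and that of Cxcl1 was 2.92% and 42.4%. Vehicle-treated WT liver 2, with 20.6% Cxcl12 and 73.1% Cxcl1, had the lowest Cxcl12 share and the highest Cxcl1 share of the vehicle livers.

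To ask which chemokines APAP changed, APAP and vehicle livers were compared over all 12 livers with the genotype label as a term, and within each label. Over the 12 livers, 5 of the 10 genes rose (Cxcl2, Cxcl10, Ccl2, Ccl7 and Ccl6) and 2 fell (Cxcl12 and Ccl9) at an adjusted p under 0.05 in edgeR's quasi-likelihood test, where 14% of all 16509 genes tested rose and 11.4% fell. The median log2 fold change of the 10 was 1.45 beside 0.01 for all genes. Of all genes 2307 rose and 1880 fell in this fit, a split that was 1932 and 2509 with limma on log2 TPM. In WT livers alone 2 genes rose (Cxcl10 and Ccl7) and 0 fell, where 1.62% of genes rose and 0.427% fell (2.05% in all), and 7 of the 10 had an unadjusted p under 0.05, as did 18.0% of all genes. Under the KO label 4 rose (Cxcl1, Cxcl2, Cxcl10 and Ccl6) and 2 fell (Cxcl12 and Ccl9), where 13% rose and 9.6% fell. The medians were 1.47 beside 0.03 in WT, the same with Ccl7 at its lower bound, and 1.69 beside -0.02 under the KO label. The WT and KO label fits share no liver, but both feed the 12-liver fit. Without vehicle-treated WT liver 2, 5 genes rose in WT (Cxcl1, Cxcl2, Cxcl10, Ccl2 and Ccl7), where 1.43% of 16387 genes passed. Without it and APAP-treated WT liver 1 together, 8 of the 10 passed over the remaining 10 livers (6 higher and 2 lower), where 33.3% of 16887 genes passed. This omission of both livers was chosen after the values were seen.

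**Figure D2:**
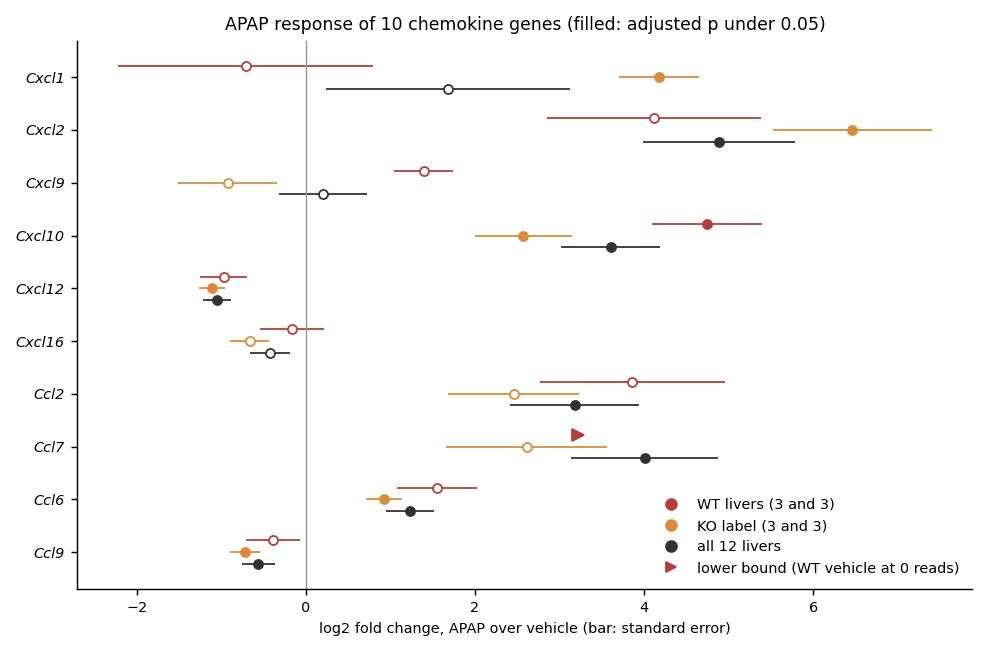
Points are log2 fold changes of APAP over vehicle from edgeR in WT livers, under the KO label and over all 12 livers, bars are standard errors, filled points passed an adjusted p of 0.05, and the triangle is the lower bound for Ccl7 in WT. Cxcl10 passed in all 3 fits, and Cxcl1 had the widest bar in the WT fit at a standard error of 1.51.

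The groups were also compared by overlap. On the CPM scale the APAP livers lay wholly above the vehicle livers for 6 genes in WT (background 12.9%) and 6 under the KO label (21.8%), and wholly below for 1 (11.9%) and 3 (21.1%). Over all 12 livers, 3 genes lay above (7.11%) and 1 below (5.37%). On the TPM scale, over all 26407 genes with reads and with no filter, so that the shares are not comparable with those in CPM, these were 4 above (Cxcl2, Cxcl10, Ccl2 and Ccl7, background 3.36%) and 1 below (Ccl9, 1.07%). Within labels, 5 lay above (7.88%) and 2 below (4.8%) in WT on that scale, and 6 above (19.1%) and 2 below (5.83%) under the KO label.

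**Figure D3:**
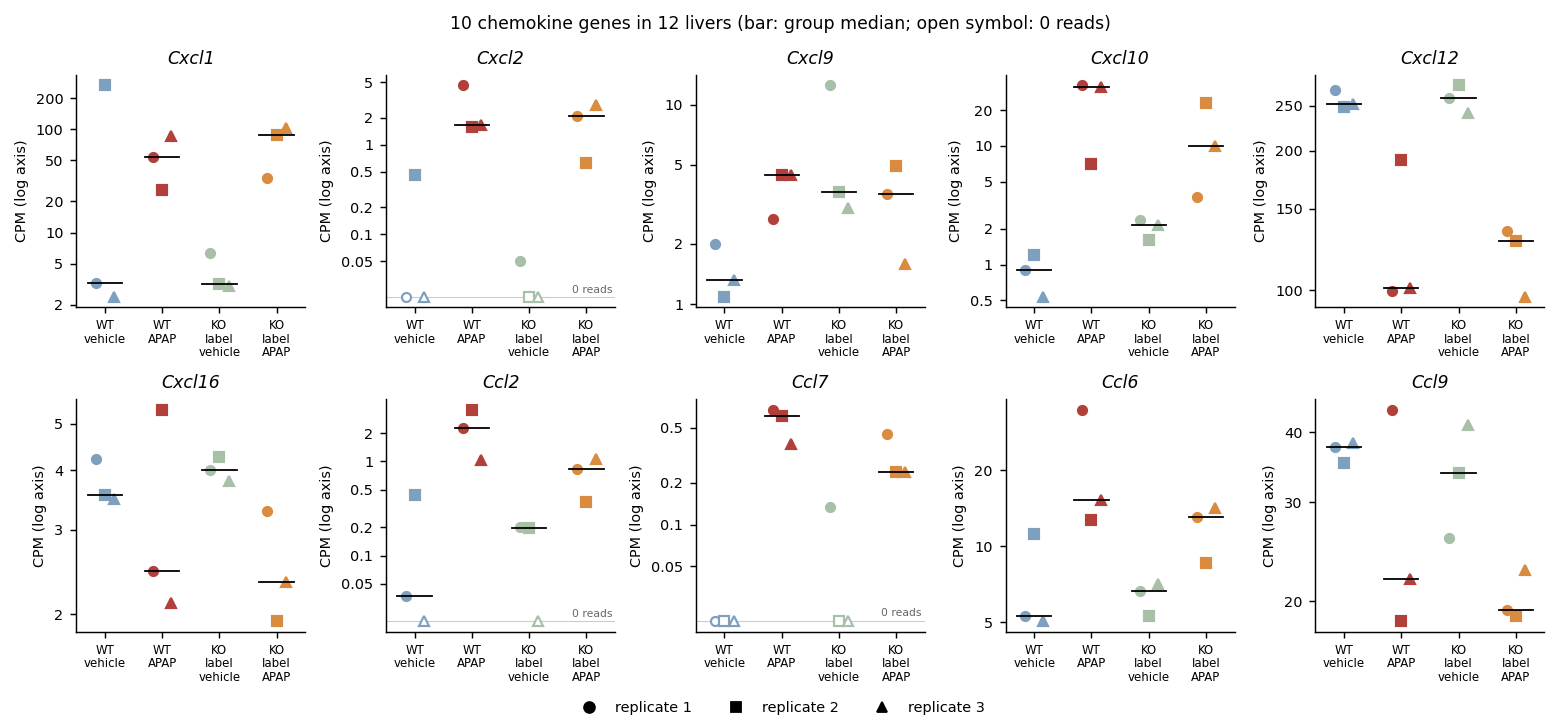
Each panel is 1 gene and each point 1 liver, in CPM after TMM scaling on a log axis, with open symbols for livers with 0 reads and bars at group medians. The Cxcl1 panel shows vehicle-treated WT liver 2 at 268 CPM, above the other 11 livers, and the Cxcl12 panel shows every APAP liver at or below 191 CPM and every vehicle liver at or above 242.

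Among the CXCR2 ligands, Cxcl1, the mouse KC chemokine, was at 3.21, 268 and 2.40 CPM in the vehicle-treated WT livers and at 54.5, 25.6 and 85.8 CPM after APAP. The KO label's livers were at 6.35, 3.15 and 3.05 CPM with vehicle and at 34.1, 89.1 and 103 CPM after APAP. All 6 APAP livers were above 5 of the 6 vehicle livers, and vehicle-treated WT liver 2, with 12809 reads, was above every APAP liver. The log2 fold change was 4.17 ± 0.48 (SE) under the KO label (adjusted p = 0.00134) and -0.71 ± 1.51 in WT (adjusted p = 0.841). Without vehicle-treated WT liver 2 the WT value was 4.30 ± 0.57 (adjusted p = 0.0303) and the 12-liver value moved from 1.68 ± 1.44 (adjusted p = 0.434) to 4.22 ± 0.40 (adjusted p = 2.94e-05). The interaction of label and treatment moved from -4.89 ± 1.88 (adjusted p = 0.872) to 0.13 without that liver. In the same liver the neutrophil marker S100a9 had 351 reads (4 to 27 in the other vehicle livers), the neutrophil receptor Cxcr2 had 54 (0 to 4) and Bcl3, an atypical IκB protein of the NF-κB feedback list, had 5881 (499 to 1099). The summed NF-κB feedback genes were at 278 CPM (143 to 170), but at 154 CPM without Bcl3 (127 to 161), within the range of the other vehicle livers. Their part in its Cxcl1 level was not tested.

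**Figure D4:**
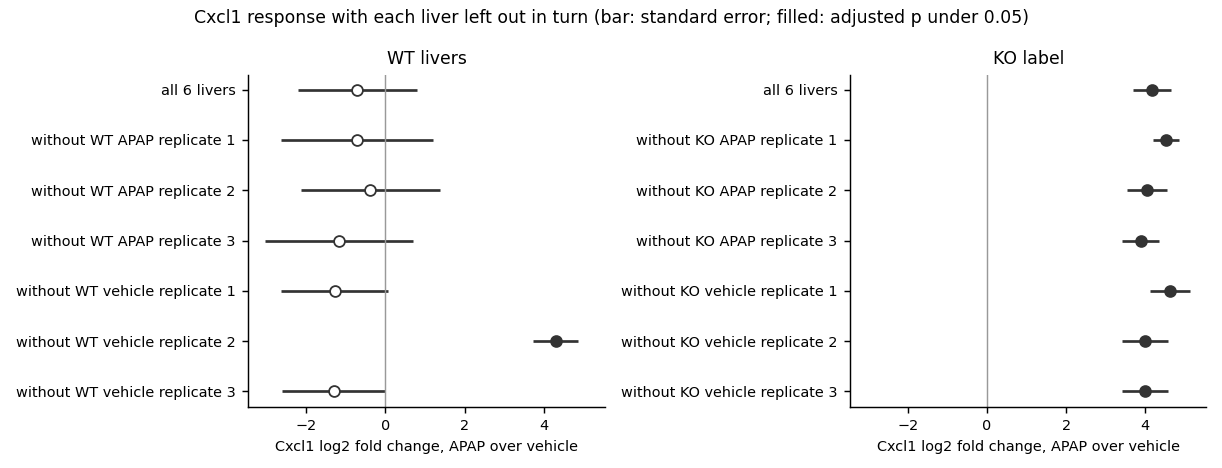
Points are the log2 fold change of Cxcl1, APAP over vehicle, in WT livers and under the KO label. Each panel shows the fit with all livers and the fits with each liver left out in turn. Bars are standard errors, and points are filled where the adjusted p was under 0.05. In WT the fit without vehicle-treated WT liver 2 is the only filled point, at 4.30, while the other fits reached down to -1.31. Under the KO label every point is filled, from 3.88 to 4.63 with each liver left out.

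Cxcl2, the MIP-2 neutrophil attractant beside Cxcl1 on chromosome 5, was nearly silent without APAP, with 0, 22 and 0 reads in the vehicle-treated WT livers and 3, 0 and 0 under the KO label. After APAP it had 234, 118 and 104 reads in WT (4.65, 1.57 and 1.65 CPM) and 121, 39 and 197 reads under the KO label (2.12, 0.624 and 2.80 CPM). The 6 APAP livers did not overlap the 6 vehicle livers, and the highest vehicle liver was again WT liver 2. Over 12 livers the log2 fold change was 4.89 ± 0.90 (adjusted p = 0.0018), and 7.04 without the 2 WT livers that stood apart, a fitted value that rests on 3 vehicle reads in all. Under the KO label it was 6.46 ± 0.94 (adjusted p = 0.00331), from 357 reads against 3, a ratio of 97.8 after scaling with a 95% Clopper-Pearson interval of 33.2 to 477 for counting error only. In WT it was 4.12 ± 1.26 (adjusted p = 0.145), and 3.404 without APAP-treated WT liver 1. Without vehicle-treated WT liver 2 the adjusted p was 0.0382, and the fitted value of 10.26 depends on the prior count because the remaining WT vehicle livers had 0 reads.

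Of the CXCR3 ligands, Cxcl10 rose in each of the 3 edgeR fits and Cxcl9 passed in none of them. Cxcl10, which attracts activated T cells, was at 0.901, 1.22 and 0.539 CPM in the vehicle-treated WT livers and at 32.5, 6.99 and 31.3 CPM after APAP. In KO-labelled livers it was at 2.38, 1.62 and 2.17 CPM with vehicle and at 3.72, 22.8 and 9.96 CPM after APAP. Every APAP liver was above every vehicle liver, although APAP-treated KO liver 1 came close to the vehicle range. Cxcl10 rose in WT (4.74 ± 0.65, adjusted p = 0.0162), under the KO label (2.57 ± 0.57, adjusted p = 0.0157) and over 12 livers (3.61 ± 0.58, adjusted p = 0.000835). Its call held in all 12 of the 12-liver fits with 1 liver left out, in 3 of 6 in WT and in 4 of 6 under the KO label, where the adjusted p reached 0.0921 in WT and 0.0688 under the KO label, and with limma on log2 TPM it was 0.0501 in WT and 0.0569 under the KO label.

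Cxcl9, the neighbouring interferon-gamma-inducible ligand, was at 2.01, 1.09 and 1.32 CPM in the vehicle-treated WT livers and at 2.68, 4.41 and 4.45 CPM after APAP. Its values in livers of the KO label were 12.5, 3.64 and 3.03 CPM with vehicle and 3.57, 4.94 and 1.58 CPM after APAP. The WT groups did not overlap on this scale, those of the KO label did, and the highest liver of all was vehicle-treated KO liver 1. The log2 fold change was 1.39 ± 0.35 in WT (adjusted p = 0.0904), -0.93 ± 0.59 under the KO label (adjusted p = 0.288, and the value was 0.036 without that liver) and 0.20 over 12 livers (adjusted p = 0.812). The ratio of Cxcl10 reads to Cxcl9 reads, formed after the values were seen, was 0.191 to 1.12 in the vehicle livers (median 0.446) and 1.04 to 12.1 in the APAP livers (median 5.46), so that the ranges met.

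The CCR2 ligands had few reads. Ccl2, the monocyte chemoattractant MCP-1, had 2, 21 and 0 reads in the vehicle-treated WT livers and 115, 266 and 65 after APAP, against 12, 10 and 0 with vehicle and 47, 23 and 75 after APAP under the KO label. In CPM the APAP livers of WT were at 2.28, 3.53 and 1.03 and those of the KO label at 0.822, 0.368 and 1.07, with the vehicle livers at 0 to 0.440. APAP-treated KO liver 2 lay below vehicle-treated WT liver 2 on the CPM scale, and the groups were apart within each label. Ccl2 rose over 12 livers (3.18 ± 0.76, adjusted p = 0.00862) and in all 12 fits with 1 liver left out. The values within labels were 3.86 ± 1.10 in WT (adjusted p = 0.124, and 6.74 with adjusted p = 0.0400 without vehicle-treated WT liver 2, where 2 vehicle reads remained) and 2.46 ± 0.78 under the KO label (adjusted p = 0.0538).

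Ccl7, the monocyte chemoattractant MCP-3 beside Ccl2, had 0 reads in all 3 vehicle-treated WT livers and 34, 46 and 24 after APAP. Under the KO label it had 8, 0 and 0 reads with vehicle and 26, 15 and 17 after APAP. All 6 APAP livers were above all 6 vehicle livers. Against a floor of 3 reads per liver, Ccl7 was at least 9.31-fold higher after APAP in WT (adjusted p = 0.0262, at most 0.0992 in the 6 fits that each drop a liver). The log2 fold change was 2.61 ± 0.95 under the KO label (adjusted p = 0.0833, and 0.0178 without vehicle-treated KO liver 1, the only vehicle liver with reads) and 4.01 ± 0.87 over 12 livers (adjusted p = 0.00505).

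The CCR1 ligands moved in opposite directions over the 12 livers. Ccl6, a macrophage product also known as C10, was at 5.31, 11.2 and 5.05 CPM in the vehicle-treated WT livers and at 34.7, 12.7 and 15.2 CPM after APAP. Livers of the KO label were at 6.65, 5.30 and 7.07 CPM with vehicle and at 13.1, 8.62 and 14.2 CPM after APAP. The groups were apart within each label, and the highest value was that of APAP-treated WT liver 1. Ccl6 rose over 12 livers (1.23 ± 0.29, adjusted p = 0.00741, and 1.13 without the 2 WT livers that stood apart) and under the KO label (0.92 ± 0.21, adjusted p = 0.0178), and was at 1.55 ± 0.47 in WT (adjusted p = 0.140), where it was 0.96 without APAP-treated WT liver 1 and 2.01 without vehicle-treated WT liver 2. The call over 12 livers held in 12 of 12 fits with 1 liver dropped and that under the KO label in 3 of 6.

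Ccl9, also known as MIP-1γ, was at 37.7, 35.3 and 38.2 CPM in the vehicle-treated WT livers and at 43.9, 18.4 and 21.9 CPM after APAP. The KO label's livers were at 26.0, 33.8 and 41.2 CPM with vehicle and at 19.3, 18.8 and 22.7 CPM after APAP. Of the 6 APAP livers, 5 were below every vehicle liver, and APAP-treated WT liver 1, the liver with the high erythroid sum and a TMM factor of 0.75, was above all of them. On the TPM scale that liver was not apart: all 6 APAP livers lay between 11.4 and 14.5 TPM and all 6 vehicle livers between 16.9 and 21.7 TPM. Ccl9 fell by 0.57 ± 0.19 on the log2 scale over 12 livers (adjusted p = 0.0489) and by 0.72 ± 0.18 under the KO label (adjusted p = 0.0234), and was at -0.39 ± 0.32 in WT (adjusted p = 0.561). Without APAP-treated WT liver 1 the WT value was -0.88 (adjusted p = 0.0468), and the adjusted p over 12 livers was between 0.000593 and 0.111 with each liver left out in turn. The 12-liver call of Ccl9 was thus at the edge of the threshold and held in 2 of those 12 fits, without APAP-treated WT liver 1 and without vehicle-treated KO liver 1, and the call under the KO label held in 2 of 6.

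Because Ccl6 and Ccl9 lie side by side, their reads were also set against each other within each liver, a ratio in which the scaling of the library cancels and which was formed after the values were seen. There were 0.132 to 0.317 reads of Ccl6 per read of Ccl9 in the 6 vehicle livers (median 0.164) and 0.458 to 0.790 in the 6 APAP livers (median 0.682). The 2 ranges did not overlap. The values of APAP-treated WT liver 1 and vehicle-treated WT liver 2, at 0.790 and 0.317, were the highest of their treatments.

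**Figure D5:**
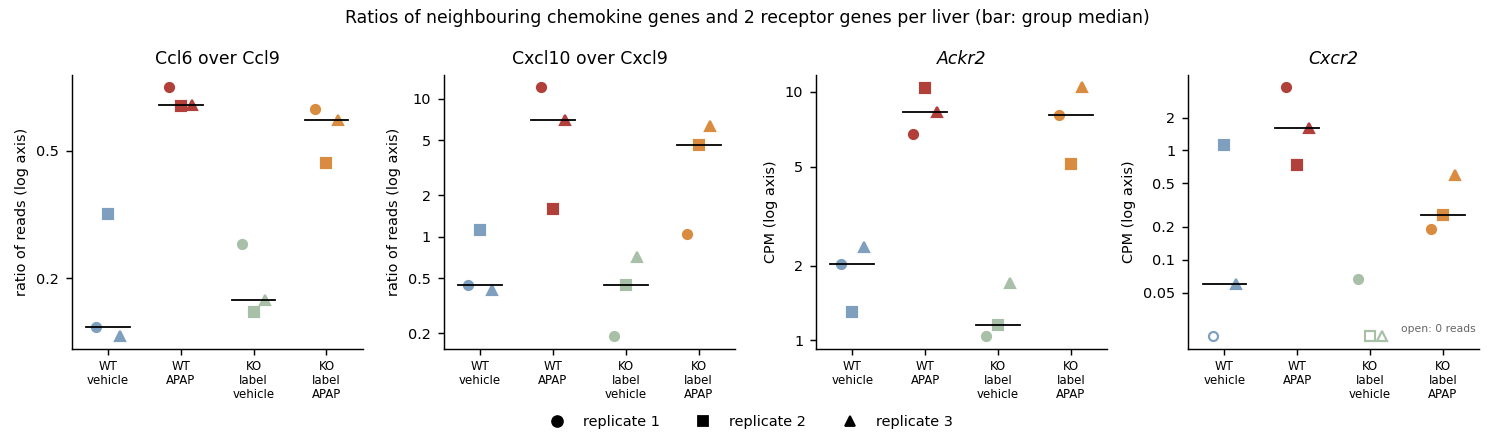
Points are livers and bars group medians, on log axes, for the ratios of reads of Ccl6 over Ccl9 and of Cxcl10 over Cxcl9 and for 2 receptor genes in CPM, with open symbols for livers with 0 reads. The Ccl6 over Ccl9 ratio stayed at or below 0.317 in vehicle livers and at or above 0.458 in APAP livers, and Ackr2 ran from 1.04 to 2.38 CPM in vehicle livers and from 5.15 to 10.5 CPM in APAP livers.

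Of the homeostatic chemokines, Cxcl12 fell and Cxcl16 did not pass. Cxcl12, which retains CXCR4-bearing cells in tissues, was at 271, 248 and 253 CPM in the vehicle-treated WT livers and at 99.5, 191 and 101.1 CPM after APAP. In KO-labelled livers it was at 259.7, 277 and 242 CPM with vehicle and at 134, 128 and 96.9 CPM after APAP. Every APAP liver was below every vehicle liver on this scale, with APAP-treated WT liver 2 the highest of the APAP livers, whereas on the TPM scale that liver (116) was above the lowest vehicle liver (112). Cxcl12 fell by 1.05 ± 0.16 on the log2 scale over 12 livers (adjusted p = 0.000632) and by 1.11 ± 0.15 under the KO label (adjusted p = 0.00292), and was at -0.97 ± 0.28 in WT (adjusted p = 0.129). All 12 fits with 1 liver left out kept the 12-liver call.

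Cxcl16, the membrane-anchored ligand that also binds oxidized lipoprotein, was at 4.23, 3.54 and 3.47 CPM in the vehicle-treated WT livers and at 2.46, 5.34 and 2.12 CPM after APAP. Its values in livers of the KO label were 4.00, 4.26 and 3.80 CPM with vehicle and 3.29, 1.93 and 2.33 CPM after APAP. Again 5 of the 6 APAP livers were below every vehicle liver, and APAP-treated WT liver 2 was the highest of all 12. Zmynd15, which shares exons with Cxcl16, had 193 reads in that liver and 39 to 123 in the other APAP livers. The log2 fold change over 12 livers was -0.43 ± 0.23 (adjusted p = 0.206), and -0.68 without that liver (adjusted p = 0.00870). Of the 50-base stretches of its transcripts, 16.9% also belong to Zmynd15, the gene on the opposite strand.

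To ask whether the genotype labels differed, WT livers were compared with livers of the KO label after APAP and with vehicle. After APAP, 0 of the 10 genes passed, where 0.0309% of 16174 genes did (0.0124% higher and 0.0185% lower). The log2 differences (WT over the KO label) ran from -0.43 to 1.61 with standard errors of 0.29 to 0.71, and no gene had groups that did not overlap (background 3.86% higher and 4.87% lower). A single gene had an unadjusted p under 0.05 (3.31% of all genes), Ccl2 at 1.61 ± 0.55 (adjusted p = 0.958 in edgeR). DESeq2's Wald test also called 0.

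With vehicle, 0 of the 8 genes that could be tested passed in edgeR (0.0262% of 15262 genes, 0.0131% higher and 0.0131% lower), and 1, Cxcl9, passed in DESeq2's Wald test. Cxcl2 and Ccl7 were under the filter. The log2 difference (WT over the KO label) of Cxcl9 was -2.12 ± 0.57 (adjusted p = 0.520 in edgeR) and that of Cxcl10 -1.21 ± 0.34 (adjusted p = 0.534), each with an unadjusted p under 0.05 and with all 3 WT livers below all 3 livers of the KO label (background 7.46% lower and 6.53% higher). Cxcl1 was the other gene with an unadjusted p under 0.05, at 4.44 ± 1.71 (adjusted p = 0.634), and its value was -0.59 without vehicle-treated WT liver 2. Of 19 interferon-gamma and interferon-induced genes tested in the same livers, 18 were on the lower side in WT with a median of -0.94 beside -0.01 for all genes, and 0 passed, although 14 had an unadjusted p under 0.05, as did 7.56% of all genes. A test of the difference between the labels' responses to APAP (interaction) called 0 of the 10 members and 0 of 16509 genes in edgeR, with 4 members and 848 genes at an unadjusted p under 0.05. These were Cxcl1 at -4.89 ± 1.88, Cxcl9 at 2.32 ± 0.77, Cxcl10 at 2.17 ± 0.91 and Ccl7, whose fitted value depends on the prior count because its vehicle-treated WT livers had 0 reads. Their adjusted p was 0.872. DESeq2's Wald test called 9 genes in all and 0 members.

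The other chemokines of the genome mostly fell under the filter or did not pass. Of 18 further CC chemokines, 9 were tested over 12 livers and 0 passed in edgeR, with a median log2 fold change of 0.00. An unadjusted p under 0.05 was found for 2 of them, beside 37.1% of all genes. Without both WT livers that stood apart, Ccl3 (3.15 ± 0.84) and Ccl4 (2.58 ± 0.81), macrophage inflammatory proteins, rose and Ccl27a fell, with adjusted p of 0.0146 to 0.0303. In that fit 10 of these CC chemokines were tested, and 33.3% of all genes passed. Ccl27a, a skin-homing chemokine, fell by 0.96 ± 0.19 on the log2 scale under the KO label (adjusted p = 0.0100). Of 11 further CXC, CX3C and XC chemokines, 6 were tested and 3 rose over 12 livers, where 14% of all genes rose, with a median of 0.88. Ppbp, the platelet chemokine CXCL7, had 0 reads in all 6 vehicle livers and 268, 24 and 12 in the APAP-treated WT livers and 0, 13 and 24 in those of the KO label (adjusted p = 0.0159, and 0.0156 without APAP-treated WT liver 1). Pf4, the other platelet chemokine, was at 2.01 ± 0.69 (adjusted p = 0.0488) with 325 reads in that liver and 12 to 35 in the other APAP livers, and at 0.74 (adjusted p = 0.118) without it. Cx3cl1, the membrane-bound fractalkine, rose by 0.82 ± 0.26 on the log2 scale (adjusted p = 0.0350) with 10 to 24 reads in vehicle livers and 31 to 42 in APAP livers.

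Among 19 chemokine receptors, 9 were tested and 1 rose over 12 livers, where 14% of all genes rose. This was Cxcr2, the receptor of Cxcl1 and Cxcl2 (2.79 ± 0.90, adjusted p = 0.0381). It had 0, 54 and 3 reads in the vehicle-treated WT livers, 192, 56 and 102 after APAP, 4, 0 and 0 with vehicle under the KO label and 11, 16 and 42 after APAP. Vehicle-treated WT liver 2 was thus the only vehicle liver within the APAP range. The value was 2.39 (adjusted p = 0.0901) without APAP-treated WT liver 1 and 4.43 (adjusted p = 0.00171) without both WT livers that stood apart. Summed neutrophil markers were at 131, 12.8 and 22.7 CPM in the APAP-treated WT livers and at 4.196, 1.15 and 8.74 CPM in those of the KO label. Between the labels after APAP, all 6 tested neutrophil markers were higher in WT, with a median log2 difference of 3.66 beside 0.02 for all genes. All 6 had an unadjusted p under 0.05 in edgeR, as did 3.31% of all genes, and 0 passed. Of 12 neutrophil markers 6 were tested over 12 livers, all 6 had an unadjusted p under 0.05 (37.1% of all genes) and 1, Cxcr2 itself, passed (25.4% of all genes). Without both WT livers that stood apart, 5 of 7 passed (33.3% of all genes). Their part in the chemokine values was not tested. Under the KO label 8 receptors were tested, of which 1 rose and 2 fell, where 13% of all genes rose and 9.6% fell. Ccr2, the receptor of Ccl2 and Ccl7, fell there by 1.502 ± 0.36 on the log2 scale (adjusted p = 0.0211), from 93, 41 and 58 reads with vehicle to 30, 25 and 25. Cx3cr1, the receptor of Cx3cl1 and a marker of patrolling monocytes, fell by 2.60 ± 0.47 (adjusted p = 0.00701) from 25, 33 and 41 reads to 5, 9 and 6. With vehicle, all 5 receptors tested were lower in WT than under the KO label (median -1.11), and 0 passed. In WT, Ccr2 had 26, 51 and 7 reads with vehicle and 30, 102 and 33 after APAP, and Cx3cr1 had 5, 19 and 19 and then 8, 20 and 17. Over 12 livers neither passed (adjusted p = 0.544 and 0.0591), and the receptors of the remaining members, named for that reason, were at -0.09 for Cxcr3, 0.78 for Cxcr4, -0.30 for Cxcr6 and 1.86 for Ccr1, none of them past the threshold.

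The atypical receptors bind chemokines without signaling for migration. Ackr2, which scavenges inflammatory CC chemokines including Ccl2 and Ccl7, was at 2.03, 1.30 and 2.38 CPM in the vehicle-treated WT livers and at 6.75, 10.4 and 8.33 CPM after APAP. Livers of the KO label were at 1.04, 1.15 and 1.70 CPM with vehicle and at 8.09, 5.15 and 10.5 CPM after APAP. The 12 livers separated completely by treatment, with 59 to 119 reads in vehicle livers and 322 to 780 in APAP livers. Ackr2 rose in WT (2.16 ± 0.30, adjusted p = 0.0176), under the KO label (2.62 ± 0.31, adjusted p = 0.00158) and over 12 livers (2.38 ± 0.23, adjusted p = 2.27e-05). Ackr4, which scavenges homeostatic CC chemokines, fell by 1.55 ± 0.35 over 12 livers (adjusted p = 0.00591), from 8 to 30 reads in vehicle livers to 7 to 11. The remaining 3 of 5, with Ackr3, the scavenger of Cxcl12, at 0.77 (adjusted p = 0.322), did not pass. Of all genes 14% rose and 11.4% fell in the 12-liver fit. Of 7 chemokine-processing proteases and scaffolds, 1 fell, where 11.4% of all genes fell. This was Dpp4, the peptidase that trims chemokine ends (-0.42 ± 0.10, adjusted p = 0.00920), and Adam10, the sheddase of Cxcl16, was at 0.02.

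Of the cytokines known to act upstream of chemokine transcription, 7 of 14 were tested and 3 rose over 12 livers, where 14% of all genes rose. Csf1, the macrophage growth factor, rose by 1.16 ± 0.26 on the log2 scale (adjusted p = 0.00665). Lif, a cytokine of the IL-6 family, had 0 to 3 reads in vehicle livers and 0 to 56 in APAP livers (adjusted p = 0.00836). Il1b, the inflammasome cytokine, was at 2.29 ± 0.79 (adjusted p = 0.0491) and lost the call without APAP-treated WT liver 1 (1.44, adjusted p = 0.0769), which held 672 of its reads. It had 7, 25 and 45 reads in the vehicle-treated WT livers and 672, 265 and 39 after APAP, so that APAP-treated WT liver 3 was within the vehicle range. Under the KO label it had 24, 11 and 16 reads with vehicle and 37, 14 and 67 after APAP.

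Of 14 tested NF-κB feedback genes, 4 rose and 0 fell, beside 14% and 11.4% of all genes, with a median of 0.35 beside 0.01. Nfkbiz, the nuclear inhibitor-like co-activator IκBζ, had the largest log2 fold change of the 14 at 2.44 ± 0.28 (adjusted p = 7.60e-05), with 579 to 842 reads in vehicle livers and 1700 to 7815 in APAP livers. Relb rose by 1.24 ± 0.35, Nfkbib by 0.57 ± 0.16 and Nfkb1 by 0.39 ± 0.13, with adjusted p between 0.0198 and 0.0490. Of 20 interferon-gamma and interferon-induced genes, 4 rose and 1 fell, beside 14% and 11.4% of all genes, with a median of 0.08. Oasl1 (2.34 ± 0.38), Rsad2 (1.36 ± 0.20), both antiviral genes, Socs1, the inhibitor of cytokine signaling (2.66 ± 0.49), and Cd274, which encodes PD-L1 (1.204 ± 0.24), were higher, and Psmb9, an immunoproteasome subunit, was lower (-1.24 ± 0.20), all with adjusted p of at most 0.00296. Without the 2 WT livers that stood apart, 5 NF-κB genes rose and 1 fell, and 5 interferon-induced genes rose and 1 fell, where 33.3% of all genes passed.

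Marker lists of the cells that make or answer chemokines were counted over the same 12 livers. The Kupffer cell (10 tested), monocyte (8), lymphocyte (9) and erythroid (5) lists had 0 genes that passed in edgeR, with 0, 2, 1 and 0 at an unadjusted p under 0.05. Over 12 livers, 3 of 7 sinusoidal endothelial markers had a positive and 4 a negative log2 fold change (median -0.073). Lyve1 and Pecam1 rose there, whereas under the KO label 1 rose and 2 fell, where 22.6% of all genes passed. Of 7 stellate cell markers, 3 were positive and 4 negative (median -0.067), and Lrat fell. Of 7 hepatocyte markers, 5 were positive and 2 negative (median 0.13), and Cyp2e1 fell. Of 5 cholangiocyte markers, all 5 were positive and Sox9 and Epcam rose, and of 3 tested platelet markers Ppbp and Pf4 rose. The share of all genes that passed in the 12-liver fit was 25.4%. What these markers contributed to the chemokine values was not tested.

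The genes whose level across the 12 livers was nearest to that of a member were found by the root mean square difference in log2 CPM after centring each gene on its own mean, for the 5 members with an SD of at least 1 across the livers. Nearest to Cxcl1 were Prg4 (0.85, against a median of 2.34 over 12154 genes), the metallothionein gene Mt2 (0.94) and Arid5a (0.94). Since the choice was made over the same livers, in which vehicle-treated WT liver 2 was the extreme value of Cxcl1, their high level in that liver follows from it: Prg4 was at 397 CPM there and at 13.3 to 36.8 CPM in the other vehicle livers, Mt2 at 2120 against 66.3 to 209, and Arid5a at 15.97 against 0.729 to 1.66. Nearest to Cxcl2 were the stress genes Gadd45a (0.74), Klf6 (0.84) and Hmox1 (0.84). Nearest to Cxcl10 were Trp53inp1 (0.77), Slc7a1 (0.79) and Adamts1 (0.81). Ccl2 had Plaur, the urokinase receptor (1.02), Tubb2b (1.08) and Arid5a (1.08), and Ccl7 had Dusp4 (0.70), Myc (0.71) and Csrnp1 (0.73), with medians over all genes of 1.81 to 2.75 for these 4 members.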

How the data were processed

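Total RNA of 12 mouse livers was read as stranded poly-A paired-end libraries. The authors trimmed, aligned and assembled the reads, and the submitters' processing notes name FastQC 0.11.7, Trimmomatic 0.38, HISAT2 2.1.0, Bowtie2 2.3.4.1 and StringTie 2.1.3b with mm10 and GRCm38. The strand setting of the counting is not given in the sources used here. The authors deposited 1 table of raw counts, FPKM and TPM per gene. FPKM values deposited there were read but not tested. Groups came from the sample labels, 0 value columns lacked a sample, and no pair of libraries was identical. Where the labels do not say that replicates are separate animals, p-values measure only the spread between these samples, which may be technical.

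Counts were tested in R 4.3.3 with edgeR 4.0.16 (TMM scaling, filterByExpr, quasi-likelihood F test), with Benjamini-Hochberg adjustment over all genes and a threshold of 0.05. Alternatives were DESeq2 1.42.0 size factors and Wald test, no filter, at least 10 counts in every liver, limma 3.58.1 on quantile-normalized log2(TPM + 1), a replicate block, and each liver left out in turn. The fits were tested on simulated data. Floors (3 counts) and intervals cover counting error only. Same-numbered livers did not deviate together (18 pairs, correlation -0.264 to 0.107), so the numbers were not used as pairs. Promoters and positions came from RefSeq tables of GRCm38.p6. Genes named from each list were those with the smallest p, up to 5 over the 12 livers and up to 3 in another comparison, and the nearest 3 genes were taken for each member with an SD of at least 1. The members and gene lists were chosen with earlier results of these data known.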

Additional observations from a re-analysis of the deposited data

Results flagged for a closer look

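Each member was checked for a single liver lying far from the other 5 of its treatment, as the gap to the nearest liver divided by the whole range of log2 CPM in that treatment. Of 20 groups checked, 4 exceeded Dixon's critical value for 6 livers. Chance flags about 1 in 20 groups where values are not tied, a rate that does not hold for Ccl7 and Cxcl2, whose vehicle livers were mostly at 0 reads. For Cxcl1, vehicle-treated WT liver 2 was high, with a ratio of 0.795. For Cxcl2 the same liver was high, with a ratio of 0.664. For Ccl7, vehicle-treated KO liver 1 was the only vehicle liver with reads, which fixes the ratio at 1. For Ccl9, APAP-treated WT liver 1 was high, with a ratio of 0.757.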

How the results depend on the processing

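The number of members that passed in WT livers, 2 as reported, was 6 with DESeq2's Wald test (5 higher, 1 lower), 1 with at least 10 counts in every liver, 1 with limma, 6 with all 12 livers in one fit, and 0 to 5 with 1 liver left out. Under the KO label it was 6, and 3 with all 12 livers in one fit (3 to 7 with 1 liver left out). WT against the KO label with vehicle gave 0, and 1 with the Wald test. Over 12 livers it was 7, and 3 with at least 10 counts in every liver, where 7 members could be tested (6 to 7 with 1 liver left out, and 8 with vehicle-treated WT liver 2 and APAP-treated WT liver 1 both left out, an alternative chosen after seeing the data). After APAP, and in the interaction, 0 members passed in every alternative run. Of all genes, 322 passed in WT as reported, 1413 with the Wald test, 1523 with all 12 livers in one fit and 62 with the replicate block. After APAP 5 genes differed by label and 29 with the Wald test, and with vehicle 4 and 137.

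Calls within a label were lost when these livers were dropped 1 at a time. In WT they were vehicle livers 1 and 3 and APAP liver 3 for Cxcl10 and Ccl7, and APAP liver 1 for Ccl7. With the KO label they were vehicle livers 2 and 3 for Cxcl10, vehicle liver 2 and APAP livers 1 and 3 for Ccl6, and vehicle livers 2 and 3 and APAP livers 1 and 2 for Ccl9. Conversely, Cxcl12 in WT passed without APAP-treated WT liver 2, Ccl2 under the KO label without APAP-treated KO liver 2, and Cxcl16 under the KO label without APAP-treated KO liver 1. Over 12 livers Ccl9 also lost its call with DESeq2 size factors, without a filter, with at least 10 counts in every liver, with the replicate block and without the label as a term.

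With the replicate block, which the data did not show to pair the livers, 0 members passed in WT, the log2 fold change of Cxcl1 in WT was 2.98 and that of Ccl2 between the labels with vehicle was -0.21. The other signs that turned were these. In WT, Cxcl1 was at 1.76 with limma (-1.31 to 4.30 with 1 liver left out) and Cxcl16 at -0.72 to 0.070. Under the KO label Cxcl9 was at -1.32 to 0.036. Between the labels after APAP the ranges were -0.14 to 0.59 for Cxcl9, -0.20 to 0.95 for Cxcl2, -0.0062 to 0.71 for Ccl9, -0.24 to 0.30 for Cxcl12 and -0.12 to 0.65 for Cxcl16. Between the labels with vehicle they were -0.010 to 0.31 for Ccl9, -0.059 to 0.037 for Cxcl12, -2.68 to 0.79 for Ccl2, -0.59 to 5.02 for Cxcl1 and -0.30 to 0.38 for Ccl6. Over 12 livers Cxcl9 was at -0.13 without the label as a term, at -0.037 without both WT livers, and at -0.054 to 0.75 with 1 left out. In the interaction Cxcl2 was at 0.15 with limma and -5.62 to 3.78 with 1 left out, Ccl9 at -0.17 to 0.57, Cxcl12 at -0.23 to 0.29, Cxcl16 at -0.022 to 0.74 and Cxcl1 at -5.46 to 0.13, and without both WT livers Cxcl1 was at 0.14, Cxcl2 at 3.10 and Ccl9 at -0.20. The cause was not tested. Low counts limit Cxcl2, Ccl2 and Ccl7, which had 0 reads in several vehicle livers.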
